A study of Mus musculus with 10 samples.

Results

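The expression of 10 genes of the Wnt pathway was followed across sorted mouse embryonic stem cells (ESCs), primordial germ cells induced from them in culture (iPGCs) and the somatic cells of the same cultures. They were 6 ligand genes (*Wnt2*, *Wnt3*, *Wnt3a*, *Wnt5a*, *Wnt5b* and *Wnt11*), 2 genes for secreted antagonists (*Sfrp1* and *Dkk1*) and 2 target genes (*Axin2* and *Lef1*). They were found as every probe set that the platform annotation gives to one of these symbols alone, which yielded 21 probe sets of 45101 on the array, 10 for ligands, 7 for antagonists and 4 for targets.

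RNA was measured on 10 Affymetrix arrays in 5 groups of 2. The ESCs were day 0 cells of the V6.5 line, a 129xBL6 F1 line grown on mouse embryonic fibroblasts, sorted as positive for SSEA1 and cKit. The other 4 groups came from day 6 embryoid bodies (EBs), aggregates in which ESCs differentiate after the self-renewal factor LIF is withdrawn. V6.5 iPGCs were sorted as SSEA1+ cells with bright cKit, and V6.5 somatic cells as negative for both. The Oct4-Gfp line has a mixed genetic background and carries a Gfp reporter of *Pou5f1* (Oct4) transcription, and its iPGCs were sorted as reporter-positive with bright cKit, its somatic cells as negative for both. No Oct4-Gfp ESCs were measured, and line, background and sort marker change together between the lines, so that these cannot be told apart. The somatic gates are defined by what the cells lack and hold a mixture of cell types. RNA was amplified before hybridisation, and nothing read here states that the 2 arrays of a group come from separate cultures, so the p-values measure the spread between these arrays, which may be technical.

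Wnt proteins are secreted lipid-modified ligands that bind Frizzled receptors. In the canonical branch they bind Frizzled together with an Lrp5 or Lrp6 co-receptor, which stabilises beta-catenin so that it enters the nucleus and joins TCF/LEF factors on target genes. *Wnt3* is required in the mouse epiblast for the primitive streak and for the competence of epiblast cells to become primordial germ cells, and *Wnt5a* acts mostly outside the beta-catenin branch, through Ror2, in cell movement and in the migration of germ cells.

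These promoters are shown because *Dkk1* and *Lef1* are genes whose own transcription can answer to beta-catenin, and *Dkk1* differed strongly between the sorted populations. Each is the 250 bases before a transcription start in the RefSeq table of build GRCm38.p6, written along the gene's strand, at chr19:30549497-30549746 (minus strand) for *Dkk1* and chr3:131110047-131110296 (plus strand) for *Lef1*. Capitals mark the letters CTTTGA, the core that TCF/LEF factors recognise, or TCAAAG on the other strand.
Dkk1: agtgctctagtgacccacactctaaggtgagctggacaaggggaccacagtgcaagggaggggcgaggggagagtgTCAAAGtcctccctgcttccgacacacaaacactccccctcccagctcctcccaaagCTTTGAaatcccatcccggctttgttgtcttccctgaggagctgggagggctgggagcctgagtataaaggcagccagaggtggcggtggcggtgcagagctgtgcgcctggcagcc
Lef1: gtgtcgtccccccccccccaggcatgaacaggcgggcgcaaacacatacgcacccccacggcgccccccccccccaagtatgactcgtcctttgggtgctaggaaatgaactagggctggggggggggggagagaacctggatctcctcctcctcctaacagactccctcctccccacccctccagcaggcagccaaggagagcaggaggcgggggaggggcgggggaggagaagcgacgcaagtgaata
The *Dkk1* window holds 2 matches, 174 and 117 bases before the start, and the *Lef1* window shown holds none. The table has windows for 8 of the 10 genes, 14 in all, and the *Lef1* window shown overlaps another of that gene. At least 1 match is held by 4 of the 14, in *Dkk1*, *Wnt11*, *Wnt5b* and at an internal *Lef1* start. The internal *Lef1* window also holds 2 matches, 180 and 120 bases before its start. Of all 32851 windows 13.8% hold a match and 1.37% hold 2 or more. *Sfrp1* and *Wnt5a* have no entry in the table. A match is a run of letters and shows no binding.

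The deposited signals were scaled to a trimmed mean of 500 on each array. A signal here is on that linear scale, and a difference is on the log2 scale after adding 14.8 to each signal, which makes the differences of dim probe sets smaller. Background was the 95th percentile of 44 olfactory receptor probe sets, between 12.6 and 25.4 per array. Of the 21 probe sets 20 passed the filter on low signals, and the *Wnt3a* probe set did not. All tests are from a limma model of the 5 groups, adjusted by the Benjamini-Hochberg method over 26368 probe sets, and a call is an adjusted p under 0.05. No level is compared between probe sets, since probes differ in how well they hybridise. A summed marker signal is weighted to its brighter probe sets, and is read only between arrays or cell types.

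Marker signals went with the labels of the sorts, in part by design, since the lists hold *Kit* and *Pou5f1*, which the gates used. The summed signal of 5 pluripotency markers was 22674 to 26490 in ESCs and iPGCs and 311 to 1039 in somatic cells. The summed signal of 8 measured germ cell markers of 9 listed was 25450 to 28496 in iPGCs, 19048 to 20513 in ESCs and 3758 to 4839 in somatic cells. Against ESCs 4 of these germ cell markers were called higher in V6.5 iPGCs and 4 were not called. Of all probe sets tested 15.6% were called higher there. Mesoderm and heart markers (8 genes) summed to 23453 to 28344 in somatic cells, 678 to 1223 in iPGCs and 150.4 to 196 in ESCs. The 3′ to 5′ ratio of the *Gapdh* controls, which rises with RNA degradation and amplification bias, ran from 1.28 to 2.37 over the arrays, lowest in ESCs.

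**Figure D1:**
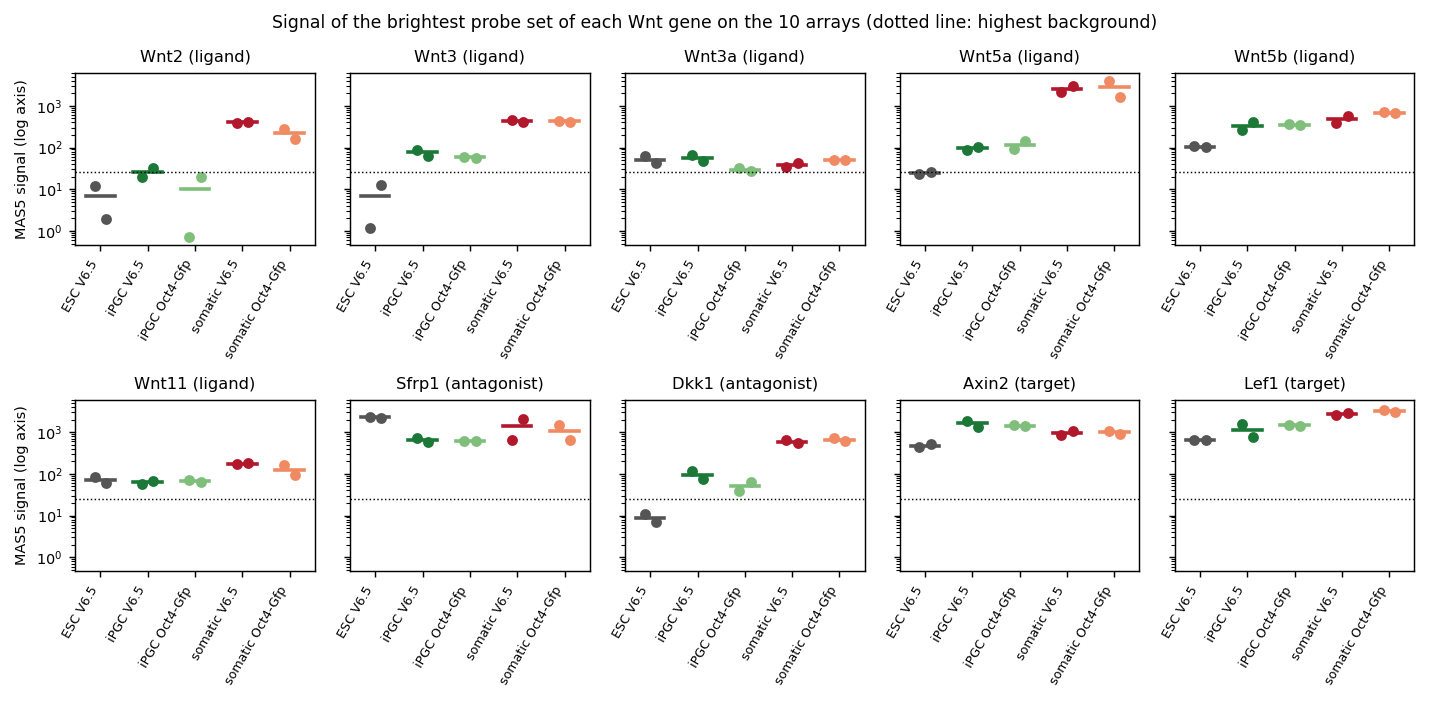
MAS5 signal (log axis) of the brightest probe set of each of the 10 genes in the 5 groups; each point is 1 array, bars are the means of 2 arrays, and the dotted line is the highest background of any array, 25.4. The somatic arrays lie above all other arrays for *Wnt2*, *Wnt3*, *Wnt5a*, *Wnt11*, *Dkk1* and *Lef1*, the iPGC arrays lie above all others for *Axin2*, and the somatic arrays of *Sfrp1* are split.

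To ask whether germ cells and their somatic neighbours differ in Wnt ligands, antagonists and targets, iPGCs were compared with somatic cells of the same line and the differences of the lines averaged. Of the 6 ligand genes 5, the antagonist gene *Dkk1* and the target gene *Lef1* were lower in iPGCs in at least 1 probe set, and *Axin2* was higher. Of the 20 probe sets tested, 12 were lower in iPGCs, against 31.4% of all probe sets tested, and 2 were higher, against 26.9% of all. Probe sets of the same gene read the same RNA, so they are not independent in this count or in those below. The median difference was -1.13 over the 20 probe sets and -0.03 over all probe sets tested. Fewer cells of a type and less RNA per cell cannot be told apart in such bulk samples. No call was made for the 5 probe sets of *Sfrp1* and for the dimmer probe set of *Wnt5b*. In V6.5 alone 11 of 20 were lower and 2 higher, beside 6124 lower and 5865 higher of all 26368 (45.5% in either direction). In Oct4-Gfp alone 12 were lower and 0 higher, beside 7289 lower and 5114 higher of all (47% in either direction). At an unadjusted p under 0.05 limma gave 13 of 20 in either direction there, beside 14351 of all 26368 probe sets tested.

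**Figure D2:**
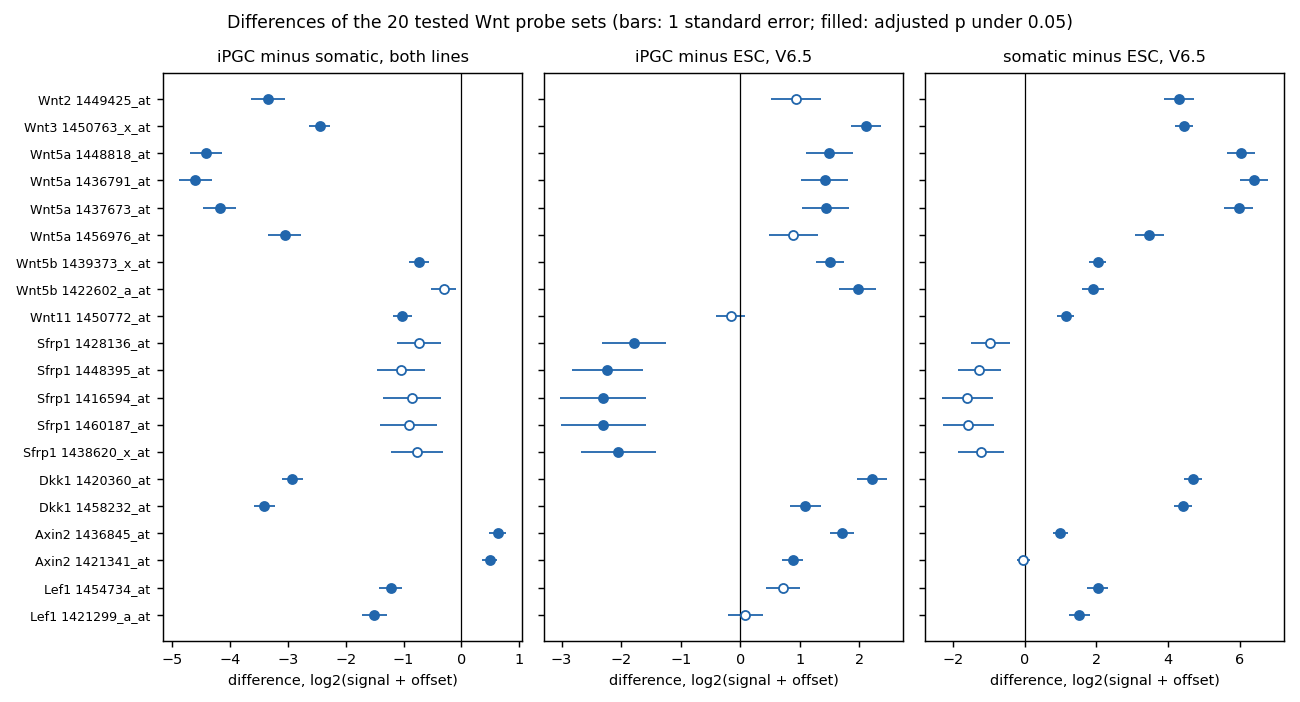
Difference on the log2(signal + 14.8) scale for the 20 tested probe sets in iPGC minus somatic (both lines), iPGC minus ESC (V6.5) and somatic minus ESC (V6.5); points are the limma estimates, bars 1 standard error, and filled points have an adjusted p under 0.05. The ligand and *Dkk1* points lie left of 0 in the first panel and right of 0 in the third.

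*Wnt5a* showed the widest separation among the ligands. Its brightest probe set read 22.8 and 25.7 in ESCs, 88.1 and 103 in iPGCs of V6.5, and 91 and 144 in those of Oct4-Gfp. In somatic cells it read 2149 and 2956 (V6.5) and 3943 and 1619 (Oct4-Gfp). Every somatic array was thus far above every iPGC array, and every iPGC array above both ESC arrays. The difference of iPGCs from somatic cells was -4.41 ± 0.28 (SE) with an adjusted p of 5.5e-06, and the other 3 *Wnt5a* probe sets gave -4.60, -4.18 and -3.06, all called. The last of these lay within background on all 4 iPGC arrays, so that it was at least 12.7-fold lower there.

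*Wnt2*, a ligand known from heart and lung mesoderm, read 384 and 417 in V6.5 and 286 and 164 in Oct4-Gfp somatic cells. In iPGCs it read 20.1 and 32.2 (V6.5) and 0.705 and 19.7 (Oct4-Gfp), and in ESCs 11.9 and 1.99, within background on both arrays. The iPGC arrays were close to background and all somatic arrays clear of it, a difference of -3.34 ± 0.29 (SE, adjusted p = 3.4e-05 by limma).

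*Wnt3* was measured by a single probe set, and its arrays lay close together within the somatic and the iPGC sorts. Somatic signals were 468, 406, 445 and 404, iPGC signals 88.6, 63.9, 59.4 and 57.8, and ESC signals 1.16 and 12.4, both within background. The 3 cell types did not overlap, and iPGCs were lower than somatic cells, with a difference of -2.45 ± 0.18 (SE, adjusted p = 1.2e-05 by limma). That probe set has the suffix _x_at, which Affymetrix gives to sets with probes that can also match other transcripts, so its signal is less certain.

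*Wnt11*, a ligand of the non-canonical branch that takes part in gastrulation movements and heart formation, was higher in somatic cells only by a small step. It read 83.4 and 61.7 in ESCs, 58.1 and 67.7 in iPGCs of V6.5, and 70.0 and 65.6 in those of Oct4-Gfp. Somatic cells read 175 and 178 (V6.5) and 163 and 91.8 (Oct4-Gfp). iPGC and ESC arrays overlapped and all somatic arrays lay above them, with a difference of -1.02 ± 0.17 between iPGCs and somatic cells (SE, adjusted p = 0.0011 by limma).

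For *Wnt5b*, a close relative of *Wnt5a*, iPGCs stood nearer to somatic cells. Its brighter probe set, also an _x_at set, read 109.9 and 101 in ESCs, 263 and 405 in iPGCs of V6.5, 360.4 and 351 in those of Oct4-Gfp, and 394, 582, 706 and 682 in somatic cells. The iPGC arrays stood well above the ESC arrays and overlapped the lowest somatic array. Its difference between iPGCs and somatic cells was -0.73 ± 0.17 (SE, adjusted p = 0.0056 by limma). The dimmer probe set read 128 to 196 in iPGCs and 109 to 240.5 in somatic cells, overlapped, and gave -0.31 ± 0.22 with no call (adjusted p = 0.26 by limma). The call of the brighter set ended without the second V6.5 and the first Oct4-Gfp somatic arrays, and the dimmer set was called without the first V6.5 somatic array.

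*Wnt3a*, which sustains the tail bud and its mesoderm, was not tested. It read 61.7 and 41.7 in ESCs, 67 and 47.1 in iPGCs of V6.5, 31.8 and 27.5 in those of Oct4-Gfp, and 34.3, 42, 50.0 and 51.2 in somatic cells. These signals lay above background on every array and the cell types overlapped.

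*Dkk1*, which blocks canonical signalling by binding Lrp5 and Lrp6, followed the ligands. The brighter probe set read 11.1 and 6.84 in ESCs, within background, then 116 and 76.8 in iPGCs of V6.5, 38.2 and 65.5 in those of Oct4-Gfp, and 642, 552, 725 and 600.0 in somatic cells. The dimmer set read 21.2 to 46.1 in iPGCs and 413 to 511 in somatic cells. The cell types did not overlap in either set, and the differences of iPGCs from somatic cells were -2.92 ± 0.18 and -3.41 ± 0.18 (SE, adjusted p = 4.9e-06 and 2.6e-06 by limma). The promoter with 2 matches printed above is that of this gene.

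*Lef1* encodes a nuclear partner of beta-catenin and is itself a target of the pathway. Its brighter probe set read 637 and 656 in ESCs, 1538 and 749.7 in iPGCs of V6.5, and 1518 and 1402 in those of Oct4-Gfp. Somatic cells read 2539 and 2850.3 (V6.5) and 3325 and 3101 (Oct4-Gfp). All somatic arrays were above all iPGC arrays, and the second V6.5 iPGC array stood near the ESCs while the other 3 iPGC arrays agreed closely. The differences between iPGCs and somatic cells were -1.22 ± 0.20 for this set and -1.50 ± 0.21 for the dimmer one (SE, adjusted p = 0.0011 and 0.00045 by limma).

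*Axin2*, a negative regulator of beta-catenin widely used as a readout of canonical signalling, went the other way. The brighter probe set read 436 and 517 in ESCs, 1891 and 1341 in iPGCs of V6.5, 1507 and 1372 in those of Oct4-Gfp, and 865, 1072, 1048 and 927 in somatic cells. Every iPGC array was above every somatic array, and every somatic array above both ESC arrays. iPGCs were higher than somatic cells by 0.63 ± 0.14 (SE, adjusted p = 0.0057 by limma). The dimmer set read 386 and 341 in iPGCs of V6.5 but 216 and 209.9 in those of Oct4-Gfp, against 170.3 to 243 in somatic cells. It overlapped between the cell types, and its averaged difference of 0.49 ± 0.13 was called (adjusted p = 0.011 by limma) with 0.92 ± 0.18 in V6.5 and 0.06 ± 0.18 in Oct4-Gfp. That call ended when the lines were pooled into 3 groups.

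*Sfrp1*, whose secreted product binds Wnt proteins and Frizzled receptors, split the somatic arrays. Its brightest probe set read 2308 and 2240.3 in ESCs, 727 and 583 in iPGCs of V6.5, and 631 and 608 in those of Oct4-Gfp. Somatic cells read 636 and 2123 in V6.5 and 1472 and 655 in Oct4-Gfp. The second V6.5 and the first Oct4-Gfp somatic arrays were high, the former near the ESCs, and the other 2 somatic arrays stood at the level of the iPGCs.
All 5 *Sfrp1* probe sets showed this split on the same arrays. The lower of the high arrays exceeded the higher of the low arrays between 1.90-fold and 3.47-fold. The probe sets of 1 gene read the same RNA and are not independent replicates of the split. The difference of iPGCs from somatic cells was -0.74 ± 0.38 (SE) in the brightest set and up to -1.05 in the others, and none was called (adjusted p = 0.063 to 0.18 by limma). Without the first V6.5 somatic array all 5 sets were called lower in iPGCs, and without the 2 high arrays the brightest set gave -0.02 ± 0.14. The 5 endoderm markers moved with the split, with summed signals of 1127 and 1003 on the high arrays and 541 and 589 on the low arrays. The 5 neural markers summed to 946 and 757 on the high arrays and 699 and 481 on the low ones. For the 5 pluripotency markers the sums were 668 (V6.5) and 1039 (Oct4-Gfp) on the high arrays and 311 (V6.5) and 898 (Oct4-Gfp) on the low ones. The fibroblast markers did not split this way, with 15733 and 14981 in V6.5 and 12534 and 10474 in Oct4-Gfp somatic cells, 1065 and 1325 in ESCs and 493 to 832 in iPGCs. The part of any of these cell types in the result was not tested.

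**Figure D3:**
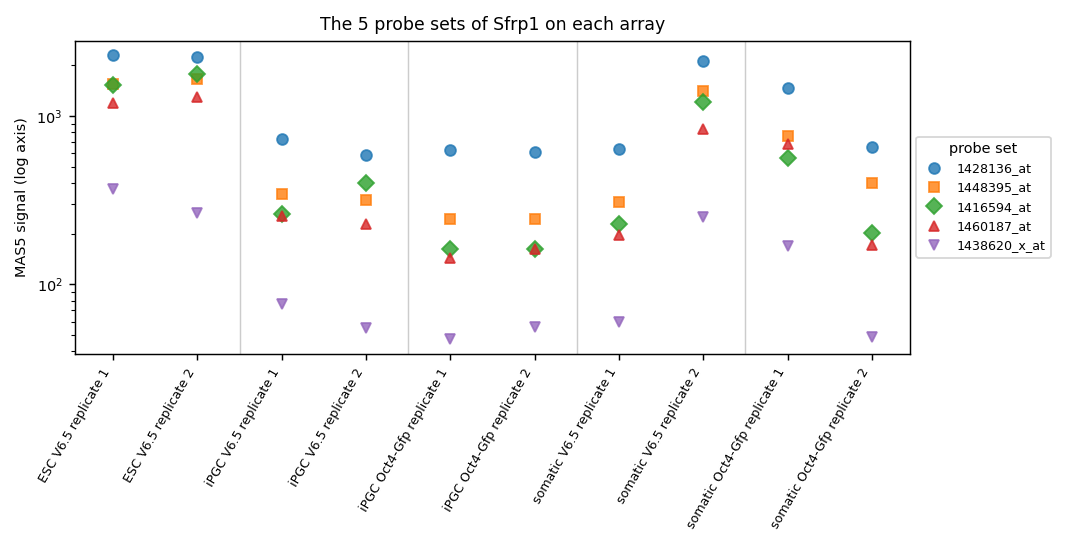
MAS5 signal (log axis) of the 5 *Sfrp1* probe sets on each of the 10 arrays; each symbol is 1 probe set and grey lines part the groups. All 5 are high in both ESC arrays, low in the 4 iPGC arrays, and high on only 2 of the 4 somatic arrays.

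The signals left in iPGCs were read beside those of markers of other cell types. The mean iPGC signal was 3.99% of the somatic mean for *Wnt5a*, 5.82% for *Wnt2*, 11.8% for *Dkk1* and 15.7% for *Wnt3*, each in the brightest probe set. It was 43.0% for *Wnt11*, 44.1% for *Lef1*, 58.4% for *Wnt5b* and 156% for *Axin2*. The summed mesoderm and heart markers in iPGCs came to 4.16% of their somatic sum and the fibroblast markers to 5.39%, with all 8 mesoderm genes above background on some iPGC array and 3 of 10 fibroblast genes within it on every iPGC array. The share was 24.3% for the summed endoderm markers, 9.36% for blood and endothelium markers and 110% for neural markers, and 6.72% for the dimmer *Dkk1* set. The part of somatic cells within the iPGC gate in these values was not tested.

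iPGCs were next compared with the ESCs they came from, in V6.5 only. Of the 20 probe sets 10 were higher in iPGCs, against 15.6% of all probe sets tested. They belonged to *Wnt3*, *Wnt5a*, *Wnt5b*, *Dkk1* and *Axin2*, so that ligands, an antagonist and a target were higher side by side. The 5 of *Sfrp1* were lower, against 11.7% of all, and all 5 read the RNA of 1 gene. With main probe sets alone 6 were called. The median difference was 0.91 over the 20 probe sets and 0.07 over all probe sets tested.

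*Axin2* was higher in iPGCs by 1.71 ± 0.20 in its brighter set and 0.88 ± 0.18 in its dimmer set (SE, adjusted p = 0.0015 and 0.011 by limma). *Wnt5b* was higher by 1.51 ± 0.24 and 1.97 ± 0.31 (adjusted p = 0.0040 for both). *Wnt3* was at least 4.95-fold and *Dkk1*, in its brighter set, at least 6.20-fold higher, since both lay within background on both ESC arrays (adjusted p = 0.0016 and 0.0014 by limma). These 6 probe sets held their call in 25 to 27 of 27 ways of processing the arrays.
The other calls were closer to the threshold, and held in 19 to 21 of the 27 ways for *Wnt5a*, 19 for the dimmer *Dkk1* set and 14 to 20 for *Sfrp1*. The brightest *Wnt5a* set was higher by 1.50 ± 0.39 (adjusted p = 0.026 by limma), and 2 of its other 3 sets were called. The 5 *Sfrp1* sets were lower, with differences of -1.78 to -2.31 (adjusted p = 0.028 to 0.047 by limma). The ESC mean was 3.57 to 6.75 times the iPGC mean over all 4 iPGC arrays, with no overlap. The model shares its spread over all groups, so the split somatic arrays of *Sfrp1* widen these SEs. In a fit of the compared arrays alone the 5 sets kept their differences (adjusted p = 0.016 to 0.024 by limma). The SE of the brightest set was 0.17 there and 0.54 in the main model. *Lef1* (0.72 ± 0.29), *Wnt2* (0.94 ± 0.42) and *Wnt11* (-0.16 ± 0.24) were not called, although *Lef1* was called without the second V6.5 iPGC array.
The *Gapdh* ratio differed between these groups, 1.28 and 1.30 in ESCs and 1.51 and 1.63 in V6.5 iPGCs. With that ratio as a covariate 4 of 20 probe sets were called in place of 15, the 2 of *Axin2*, the brighter of *Dkk1* and that of *Wnt3*. Calls also fell over all 26368 probe sets tested, from 4101 higher and 3079 lower in iPGCs to 1213 and 827. Fewer of the 20 were also called with either ESC array or either V6.5 iPGC array left out, which leaves 1 array in that group. The share over all probe sets is not given for these fits, so the fall cannot be read as particular to the members.

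Somatic cells were then compared with ESCs in V6.5, a comparison that shares the ESC arrays with the one above and the somatic arrays with the first. Of the 20 probe sets 14 were higher in somatic cells, against 30.1% of all, and 0 were lower, against 27.2% of all. Limma gave 14 of 20 an unadjusted p under 0.05, beside 16340 of all 26368 probe sets tested. The median difference was 1.97, and 0.04 over all probe sets tested. *Wnt5a* had the largest difference among the brightest sets, 6.02 ± 0.39 (adjusted p = 1.2e-05 by limma). *Dkk1* was at least 39.1-fold, *Wnt3* at least 28.6-fold and *Wnt2* at least 26.3-fold higher in somatic cells, against ESC signals within background. *Wnt5b* was higher by 2.04 ± 0.24, *Lef1* by 2.03 ± 0.29, *Wnt11* by 1.14 ± 0.24 and *Axin2* by 1.00 ± 0.20 in the brightest sets, all called. The dimmer *Axin2* set gave -0.04 ± 0.18 and the *Sfrp1* sets -0.96 to -1.60, with no call, but all 5 *Sfrp1* sets were called lower without the second V6.5 somatic array. The order of the brightest sets in V6.5 was therefore ESC, iPGC, somatic from low to high for *Wnt3*, *Wnt5a* and *Dkk1*, with both steps called. For *Wnt5b* the step from iPGCs to somatic cells was not called in V6.5 (-0.53 ± 0.24, adjusted p = 0.10 by limma), and for *Lef1*, *Wnt2* and *Wnt11* that from ESCs to iPGCs was not. For *Axin2* the order was ESC, somatic, iPGC, with both steps called.

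The difference between iPGCs and somatic cells was set side by side in the lines, which share no arrays. For *Wnt5a* it was -4.53 ± 0.39 in V6.5 and -4.30 ± 0.39 in Oct4-Gfp, for *Wnt3* -2.32 ± 0.25 and -2.58 ± 0.25, and for *Lef1* -1.31 ± 0.29 and -1.13 ± 0.29, all SE. For *Dkk1* it was -2.48 ± 0.25 and -3.37 ± 0.25. *Axin2* was called in V6.5 (0.72 ± 0.20, adjusted p = 0.020 by limma) and not in Oct4-Gfp (0.54 ± 0.20, adjusted p = 0.058). The V6.5 call ended with the *Gapdh* ratio as a covariate, in a fit of the compared arrays alone, and without the first iPGC or the first somatic array of V6.5. The Oct4-Gfp difference was called after median centring, with limma-trend and without either V6.5 iPGC array. The *Lef1* call in Oct4-Gfp ended with the *Gapdh* covariate, and without the second iPGC or the first somatic array of that line, also when the second V6.5 somatic array was left out with the latter, which ended the V6.5 call of *Lef1* too. The call of the brighter *Wnt5b* set in Oct4-Gfp ended under the same settings. *Wnt11* was called in Oct4-Gfp (-0.74 ± 0.24, adjusted p = 0.036 by limma), but that call ended under 13 of the alternatives. They included quantile normalization, median centring, limma-trend, no moderation and no filter.
The difference between the lines was itself tested. Of the 20 probe sets 0 were called, beside 0.0152% of all probe sets tested. By limma 2 of the 20 had an unadjusted p under 0.05, beside 2758 of all 26368. The 2 line differences nearest to a call were -0.86 ± 0.25 for the dimmer *Axin2* set and -0.89 ± 0.36 for the brighter *Dkk1* set (adjusted p = 0.35 and 0.46 by limma). Between the iPGCs of the lines 0 of 20 were called, with 0% called over all. An unadjusted limma p under 0.05 was found there for 3 of the 20 and for 5526 of all 26368. Between the somatic cells 0 of 20 were called, with 0.0834% called over all. An unadjusted limma p under 0.05 was found there for 0 of the 20 and for 3287 of all 26368. Blood and endothelium markers (6 genes) summed to 11662 and 9705 in V6.5 somatic cells and to 3378 and 2757 in Oct4-Gfp somatic cells, so the somatic mixtures of the lines differed in these markers. The SE of the line difference of iPGC minus somatic was 0.25 to 1.01 over the 20 probe sets, so that small line differences could not be detected.

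**Figure D4:**
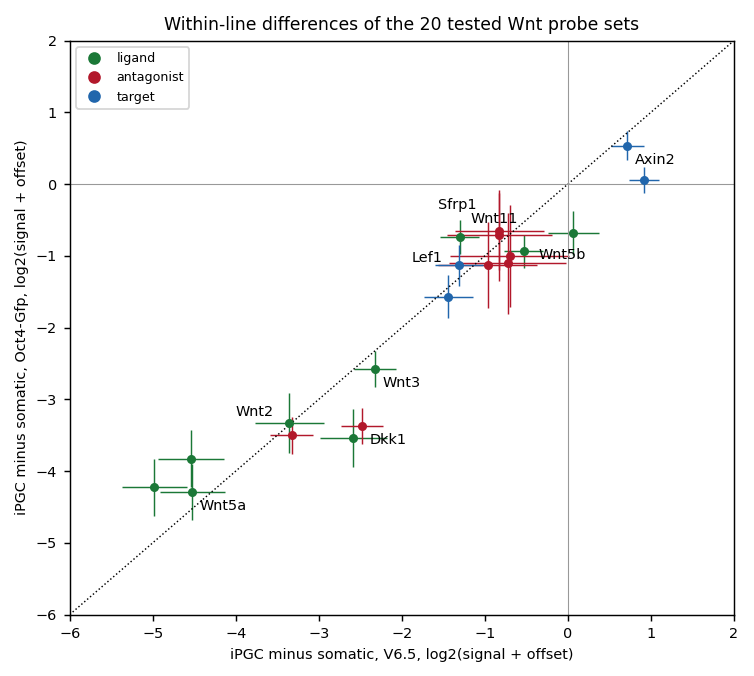
Difference of iPGCs from somatic cells, log2(signal + 14.8), in V6.5 (horizontal axis) and in Oct4-Gfp (vertical axis) for the 20 tested probe sets; bars are 1 standard error, colours give the role, each gene is named at its brightest probe set and the dotted line marks equal differences. The *Wnt5a*, *Wnt2*, *Wnt3* and *Dkk1* points lie far below 0 in both lines and the *Axin2* points above 0.

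The rest of the pathway was read from lists of 95 further genes, of which 67 had a tested probe set. Between iPGCs and somatic cells 34 were lower in iPGCs, 17 higher and 16 not called, with a median difference of -0.51. That is 50.7% lower and 25.4% higher, beside 31.4% and 26.9% of all probe sets tested. Here and below the lists count the brightest probe set of each gene, while the shares of all count every tested probe set. The shares are therefore not strictly alike. Of 16 receptor genes 13 were lower in iPGCs, 2 higher and 1, *Fzd10*, not called, a count that was not tested as a list. The Frizzled genes *Fzd4* (-4.28 ± 0.22) and *Fzd1* (-3.59 ± 0.22) had the largest differences among those lower, and *Ror1*, which encodes a receptor for Wnt5a, gave -2.43. *Lrp5* (-0.71) and *Lrp6* (-0.51), the co-receptors of the canonical branch, were lower by less. *Fzd5* (2.55 ± 0.16) and *Fzd9* (2.39 ± 0.23) were the receptors higher in iPGCs. The mean *Fzd5* signal was 2577 in ESCs, 1306 in iPGCs, and 214 on the somatic arrays.

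A pair of genes that every Wnt-secreting cell needs differed in opposite directions between iPGCs and somatic cells. *Porcn*, the enzyme that attaches the lipid to Wnt proteins, averaged 1203 ± 293 in iPGCs against 100.1 ± 5.39 in the somatic cells (SD, 4 arrays each), a difference of 3.38 ± 0.14 (SE). *Wls*, the carrier that brings them to the cell surface, averaged 323 ± 115 in iPGCs against 2990.1 ± 381 in the somatic cells (SD, 4 arrays each), a difference of -3.20 ± 0.16 (SE). Against ESCs, V6.5 iPGCs were higher for *Wls* by 2.09 ± 0.22, while *Porcn* gave 0.39 ± 0.20 with no call (adjusted p = 0.18 by limma). V6.5 somatic cells differed from ESCs in *Porcn* by -3.14 ± 0.20. *Notum*, an extracellular enzyme that inactivates Wnt proteins by removing the lipid, was higher in iPGCs than in somatic cells by 1.02 ± 0.23. All of these differences were called except that of *Porcn* between V6.5 iPGCs and ESCs.

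Of the other ligands only *Wnt4* and *Wnt9a* had tested probe sets, and *Wnt4* was lower in iPGCs (-2.41 ± 0.28). Among agonists, *Rspo3*, whose product strengthens Wnt signalling by sparing Frizzled from turnover, was lower (-3.41 ± 0.19), while *Znrf3*, a ligase that removes Frizzled and a target of the pathway, was higher by 0.51 ± 0.17. Of the other secreted antagonists *Dkk3* (-4.09 ± 0.18) and *Frzb* (-3.26 ± 0.25) were lower in iPGCs and *Sfrp4* was higher (1.75 ± 0.16).

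In the cytoplasm the genes divided evenly. Of 12 genes 3 were higher in iPGCs and 3 lower, or 25% each, near the 26.9% and 31.4% of all probe sets tested. The 6 not called included *Ctnnb1*, which encodes beta-catenin (-0.12, adjusted p = 0.30 by limma). *Btrc* (0.68 ± 0.10) and *Apc* (0.59 ± 0.12), both of the machinery that degrades beta-catenin, were higher. *Gsk3b*, a kinase of the same machinery, was lower (-0.60 ± 0.11), and its members *Axin1*, *Gsk3a* and *Csnk1a1* were not called. *Tnks*, which marks Axin proteins for turnover, was lower (-0.73 ± 0.14), and so was *Dvl3*, which relays the receptor signal, with a mean signal of 79.8 ± 24.2 in iPGCs against 173 ± 39.2 on the somatic arrays (SD, 4 arrays each, adjusted p = 0.00056 by limma). Among 10 nuclear effectors 5 were lower, 2 higher and 3 not called, or 50% lower and 20% higher. The 2 higher were the Groucho co-repressors *Tle4* (2.24 ± 0.15) and *Tle1* (1.48 ± 0.09), whereas *Tle3*, of the same family, was lower (-1.48 ± 0.12) and so was the co-activator *Bcl9l* (-1.54 ± 0.14).

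Other known targets did not move as one group. All 8 tested were called, 5 lower in iPGCs and 3 higher, or 62.5% and 37.5%, beside 31.4% and 26.9% of all probe sets tested. *Myc* (-3.08 ± 0.14) and *Cdx2* (-2.18 ± 0.26) were lower, and *Cdx1* (1.54 ± 0.18) and *Sp5* (1.27) higher. The *Sp5* arrays overlapped, with means of 119 in iPGCs and 9.25 in somatic cells of V6.5 but 74.3 and 68.5 in Oct4-Gfp. *Cdx2*, a posterior homeobox gene, averaged 27.5 in ESCs, 408 in V6.5 iPGCs and 2124 in V6.5 somatic cells, and the step from ESCs to iPGCs was 3.24 ± 0.37 (SE, adjusted p = 0.0013 by limma). Of 8 genes of the planar polarity branch 3 were lower and 3 higher, or 37.5% each, beside the same shares of all. *Prickle1* (-2.74 ± 0.23) and *Daam1* (-1.65 ± 0.12) were among those lower, and *Celsr2* (1.38 ± 0.11) and *Celsr3* (1.03 ± 0.17) among those higher.

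Against ESCs 16 of the 67 genes were higher and 6 lower in V6.5 iPGCs, or 23.9% and 8.96%, beside 15.6% and 11.7% of all probe sets tested. In V6.5 somatic cells 35 were higher and 13 lower, or 52.2% and 19.4%, beside 30.1% and 27.2% of all, so fewer probe sets of any kind were called in the former comparison. Among the receptors 1 was higher in iPGCs (*Ror1*, at least 2.15-fold) and 1 lower (*Fzd5*, -1.09 ± 0.22), while 12 of 16 were higher and 2 lower in somatic cells. *Prickle1* (2.79 ± 0.32), *Rspo3* (1.78 ± 0.27), *Frzb* (1.32 ± 0.36), *Tle1* (1.08 ± 0.13) and *Apc* (0.62 ± 0.16) exceeded their ESC level in iPGCs, while *Dkk3* (-1.69 ± 0.25), *Cdx1* (-0.98 ± 0.26) and *Dvl2* (-0.81 ± 0.17) were below it. In somatic cells *Prickle1* was higher than in ESCs by 5.67 ± 0.32, *Cdx2* by 5.65 ± 0.37, *Wls* by 5.12 ± 0.22 and *Gsk3b* by 1.33 ± 0.15, and *Fzd5* (-3.65 ± 0.22) and *Celsr1* (-1.77 ± 0.30) were lower. *Sp5*, a direct target of the canonical branch, was at least 9.13-fold lower in somatic cells than in ESCs.

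**Figure D5:**
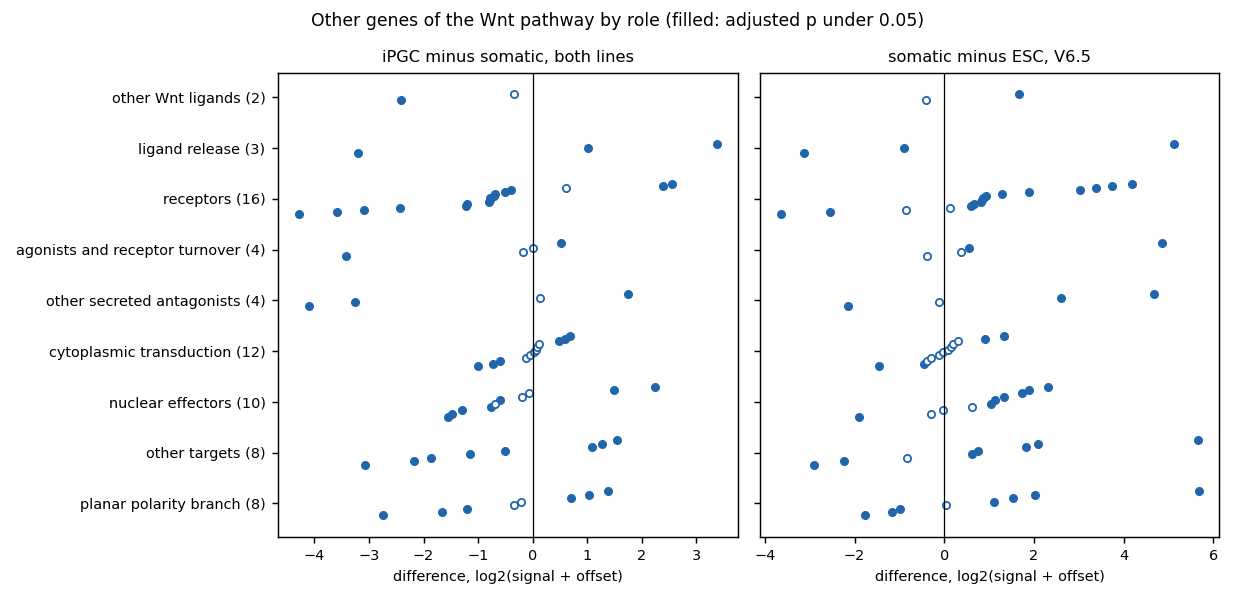
Difference on the log2(signal + 14.8) scale for the 67 other pathway genes with a tested probe set, by role, in iPGC minus somatic (both lines) and somatic minus ESC (V6.5); each point is the brightest probe set of 1 gene, and filled points have an adjusted p under 0.05. Receptor points lie mostly left of 0 in the first panel and right of 0 in the second, and the cytoplasmic genes lie on both sides of 0 in each panel.

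For each member the 2 genes with the most similar profile were sought over the 10 arrays and 12199 genes by Pearson's r, a description in which the arrays of 3 cell types dominate. *Wnt5a* was most like *Tgfb2* (r = 0.993) and *F2r* (r = 0.992), *Dkk1* like *Ssbp3* (r = 0.995) and *Igf2* (r = 0.994), and *Wnt2* like *Dchs1* (r = 0.995) and *Egr3* (r = 0.994). *Wnt3* was most like *Ms4a4d* (r = 0.992) and *Zfp326* (r = 0.991), and *Lef1* like *Mier3* (r = 0.990) and *Cep170* (r = 0.989). *Wnt5b* was nearest to *Cavin4* (r = 0.977) and *Dsp* (r = 0.974), and *Wnt11* to *Erg* and to the receptor gene *Fzd3* (r = 0.970 each). *Axin2* was nearest to *Rassf3* (r = 0.967) and *Txnl4a* (r = 0.960). *Sfrp1* had the lowest best match of the members, *Sema5b* (r = 0.936), followed by *Pacs2* (r = 0.933).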

How the data were processed

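The RNA of 5 sorted populations was hybridised to 10 arrays. What is deposited is the MAS5 signal, an intensity on a linear scale, which the authors brought to a trimmed mean of 500 on every array; the submitters' notes name MAS5 without a version. D-Chip, which the study's methods describe, did not make these values. Probe-level values and detection calls were not used here.

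The offset of 14.8 in log2(signal + 14.8) is the 25th percentile of the table. After removal of 64 control probe sets, those that exceeded the median of an array on 2 or more arrays entered the tests, 26368 of 45101. The platform annotation gives 1 symbol to 34958 probe sets, several to 932 and none to 9211. One limma model (version 3.58.1, R 4.3.3) held the 5 groups, with 5 residual degrees of freedom and 2.92 from the prior, with Benjamini-Hochberg adjustment. Plots used matplotlib 3.10.9. A gene's brightest or main probe set is the one with the highest mean. A fold is a lower bound where one side lay within background on all its arrays.

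The scaling moves the direction of calls. Of all calls between iPGCs and somatic cells 46.1% were higher in iPGCs, 53.0% after quantile normalization and 59.3% after median centring, which removes a gap of -0.18 between the array medians of iPGCs and somatic cells and so moves every difference up by that much. Between V6.5 iPGCs and ESCs the shares were 57.1%, 50.7% and 46.0%, and between V6.5 somatic cells and ESCs 52.5%, 48.7% and 41.9%, where centring removes a gap of 0.19 and so moves every difference down by it. Within Oct4-Gfp they were 41.2%, 53.2% and 59.8%.

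The members, the pathway and marker lists and the tests were chosen with earlier results of these data known, and the study names *Sfrp1*, *Wnt3* and *Wnt5b* from these arrays, so no count is independent evidence. Pathway genes outside the members were named by a rule. It takes, among called genes whose arrays do not overlap, up to 2 per list and direction with the largest change between iPGCs and somatic cells and 1 per list and direction against ESCs. *Lrp5*, *Lrp6*, *Fzd10*, *Wnt9a*, *Ctnnb1*, *Axin1*, *Gsk3a*, *Csnk1a1* and, between iPGCs and somatic cells, *Ror1*, *Sp5* and *Gsk3b* were named after their values were seen. Precision is limited by the number of arrays.

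The alternatives were a stricter filter and none, a floor, a larger offset, quantile normalization, median centring, array weights, limma-trend, no moderation, a fit of the compared arrays alone, 3 pooled groups, the mean of both lines against ESCs, main probe sets alone, the *Gapdh* ratio as a covariate, the replicate number as a block and each array left out in turn. Added after seeing the data were a crossed block and a fit without the 2 somatic arrays of high *Sfrp1*.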

Additional observations from a re-analysis of the deposited data

Results flagged for a closer look

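Among the 4 somatic arrays of both lines the dimmer *Wnt5b* probe set had 1 array far from the others. The first V6.5 array read 109 and the other 3 read 234 to 241, a gap of 0.946 of the whole range. Chance flags about 1 in 20 groups of this size.

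For *Wnt3a*, which was not tested, both V6.5 iPGC arrays lay above both V6.5 somatic arrays and both Oct4-Gfp iPGC arrays lay below both Oct4-Gfp somatic arrays. The difference of iPGCs from somatic cells in Oct4-Gfp minus that in V6.5 was -0.99 on the log2 scale. This difference was not tested, and all these signals were near the low end of the scale.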

How the results depend on the processing

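Over all single values, called or not, counted once for each probe set, comparison and alternative, 2290 kept their direction and side of the threshold, 120 were called in the main analysis and not under the alternative, 58 were called under the alternative alone and 32 changed sign. Between iPGCs and somatic cells 14 of 20 probe sets were called, 14 to 20 with 1 array left out, the 20 without the first V6.5 somatic array. The other comparisons gave 5 to 16 (iPGC minus ESC, main 15), 14 to 19 (somatic minus ESC, main 14), 12 to 16 (V6.5, main 13) and 9 to 13 (Oct4-Gfp, main 12) with 1 array left out. Counting main probe sets alone gave 8, 6, 8, 7 and 7 in the same order, because fewer probe sets are counted. Between iPGCs and ESCs no filter gave 9, no moderation 6 and the *Gapdh* covariate 4. The cause was not tested. For single arrays left out, no filter and no moderation, no share over all probe sets is given beside these counts. They therefore do not show whether the members changed more than other probe sets.

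The signs that changed were of values with no call. Between iPGCs and somatic cells without the 2 somatic arrays of high *Sfrp1*, 3 *Sfrp1* sets gave 0.089, 0.073 and 0.065. In V6.5 the 5 *Sfrp1* sets gave 0.47, 0.034, 0.091, 0.10 and 0.28 there and without the second somatic array alone, and with 1 array left out they ran from -1.87, -1.68, -1.74, -2.03 and -1.72 up to those values; the dimmer *Wnt5b* set ran from -0.45 to 0.59. In Oct4-Gfp the dimmest *Sfrp1* set gave 0.022 with the *Gapdh* covariate and 0.055 without the high arrays, running from -1.48 to 0.055 with 1 array left out, and the dimmer *Axin2* set ran from -0.18 to 0.30. Against ESCs the dimmer *Lef1* set in iPGCs gave -0.077 after quantile normalization and -0.13 with lines pooled or averaged, and *Wnt11* gave 0.21 with the *Gapdh* covariate and ran from -0.34 to 0.018 with 1 array left out. In somatic cells the dimmer *Axin2* set gave 0.027 with lines pooled or averaged and 0.42 with the covariate. It gave 0.055 without the high arrays or without the second V6.5 somatic array alone, and 0.013 without the first ESC array. With any other array left out it stayed below 0. With the covariate 2 *Sfrp1* sets gave 0.11 and 0.0021.

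The deviations of arrays with the same replicate number gave r from -0.29 to 0.26 between groups. Between iPGCs and somatic cells r was 0.014 in V6.5 and 0.13 in Oct4-Gfp. Against the ESCs it was 0.26 for V6.5 iPGCs and -0.017 for V6.5 somatic cells. Each r rests on so few arrays per group that it cannot decide whether the replicate numbers pair the arrays. With the replicate block 14, 11, 14, 13 and 12 probe sets were called in the same order, and with the numbers of the Oct4-Gfp arrays exchanged 15, 15, 15, 13 and 12. The line comparisons gave 0 under every alternative.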
